A study of Zea mays with 4 samples.

Results

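The genes described here encode the proteins that write, remove, read and assemble chromatin marks in maize. They were the probe sets whose gene symbol or synonym was 1 of 15 symbol stems followed by a number, such as hda101 or dmt101. The stems stand for histone deacetylases (hda, hdt), histone acetyltransferases (hac, hag), SET domain and Polycomb genes (sdg, mez, fie, vef), DNA methylation genes (dmt, mbd), nucleosome remodelling and assembly genes (chr, nfc, nfa), high mobility group genes (hmg) and bromodomain genes (gte). In all, 59 probe sets of 43 genes were found, among 17621 probe sets without controls and 1108 genes named in the platform annotation. No named gene carried a chr symbol.

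DNA in plants is methylated by several enzyme families, of which MET1-type enzymes copy methylation at CG sites after replication and chromomethylases act mainly at CHG sites. Acetyl groups on histone tails are added by acetyltransferases and removed by deacetylases, and acetylated histones go with open chromatin. Polycomb repressive complex 2, built from an Enhancer of zeste methyltransferase, the WD40 protein FIE and a VEF domain protein, methylates a lysine of histone H3 and keeps developmental genes off. Many of these genes are used most in dividing cells, where new DNA has to be packed and its marks copied.

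Total RNA of 2 maize lines, F98902 and Cm489, was hybridised to 4 Affymetrix maize arrays, with n = 2 arrays per line, in a series about the diversity of the maize cell wall. Both lines came from soil-grown plants, sampled as aerial material during flower development. No treatment, transgene or mutant allele is named in the labels. Neither the organ nor any pooling is stated, and the replicates of a line may or may not be different plants, so the p-values below measure only the spread between these samples. All values are log2 signals, and levels of different probe sets were not compared with each other, since probes differ in brightness. The number of arrays limits the precision.

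The label of the material could be checked only loosely. A list of floral MADS box genes was taken by symbol alone, so a floral role of each member was not checked. Of its 28 genes, 10 were tested. The others were untested and lay under 4 on all 4 arrays. Among them were si1 (silky1) and ZAG1, floral organ genes at 2.02 to 2.34, the floor of the scale. The genes zag2, ZAG3, ZAG5 and zmm2 were there too, at 1.87 to 2.37. Among the 10 tested, zap1 (LOC542257) was at 9.21 and 9.53 in F98902, against 10.42 and 11.16 in Cm489. The gene m15 (LOC542032) was at 11.07 and 8.81 in F98902, against 7.99 and 9.78 in Cm489. For 9 tested green tissue genes the signals were summed on the linear scale, where bright genes weigh most. The log2 of this sum was 15.03 and 12.85 in replicates 1 and 2 of F98902, against 12.45 and 14.52 in Cm489. The arrays of a line thus differed widely in photosynthesis genes, and oppositely in the lines. The antenna protein gene lhcb6 (LOC542321) was at 13.62 and 8.94 in F98902, against 6.26 and 12.82 in Cm489. Of 4 control transcripts that bear on RNA integrity, 2 differed oppositely between the arrays of the lines. The 5' minus 3' signal was -0.83 and -1.65 in F98902, against -1.61 and -1.02 in Cm489, for the control transcript cyclophilin, and -2.02 and -3.65, against -4.10 and -3.27, for GAPDH. The other 2 did not. EF1-alpha had -1.88 and -2.97 in F98902, against -3.42 and -4.44 in Cm489, and ubiquitin -1.60 and -1.36, against -1.60 and -1.55. The part of tissue state and RNA integrity in the results below was not tested.

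**Figure D1:**
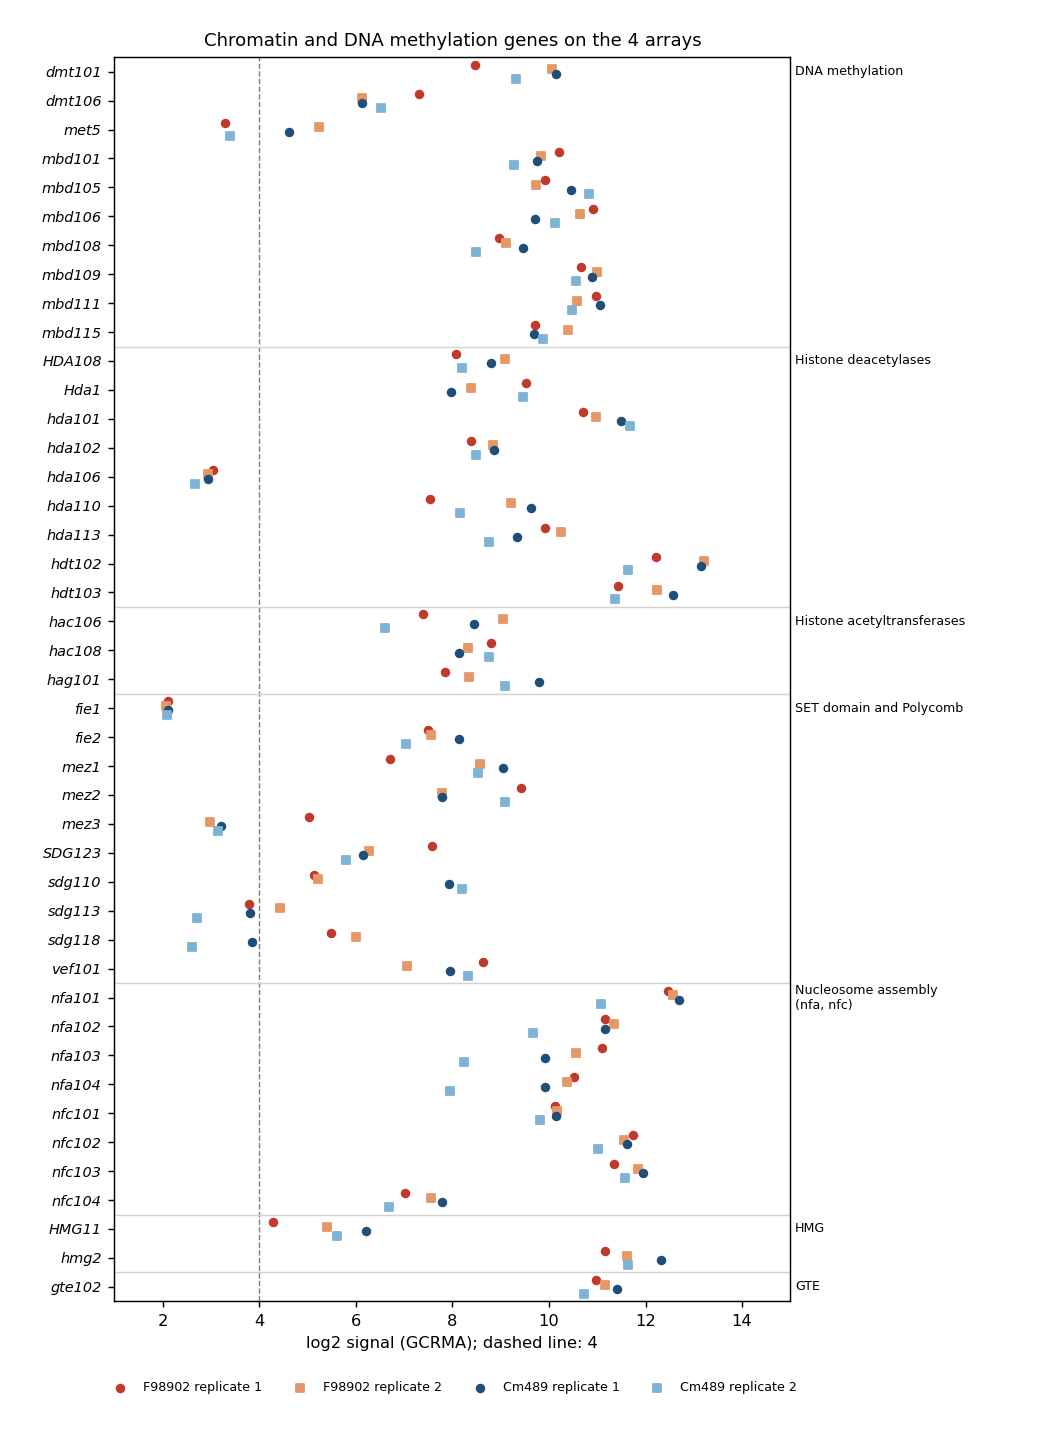
The log2 signal (horizontal axis) of the 43 chromatin and DNA methylation genes on each array, by class, with 1 probe set per gene, the brightest on average. Points are single arrays, with F98902 in red and orange and Cm489 in dark and light blue. The dashed line marks log2 4, below which a value gives no level. The genes fie1 and hda106 lie left of it on all 4 arrays, and sdg110 and hag101 have both F98902 points left of both Cm489 points.

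Chromatin genes were mostly well measured. A probe set was tested when it reached log2 4 on at least 2 arrays, which 49 of the 59 did (83.1%, against 63.8% of all probe sets), and 45 of these reached it on all 4. The tested probe sets covered 39 genes. The other 10 probe sets lay under 4 on all arrays (7) or on all but 1 (3). They left hda106, fie1, mez3 and sdg113 without a tested probe set.

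No chromatin gene passed the test between the lines. In limma's fit across all 11242 tested probe sets, F98902 minus Cm489, 0 of 49 chromatin probe sets had an adjusted p under 0.05, where 1.78% of all tested probe sets had. At an unadjusted p under 0.05 there were 2, of sdg110 and sdg118, where 10.5% of all tested probe sets had one. Of these sdg118 was tested only because F98902 reached log2 4, so its count is no support for a difference. The median difference was 0.15 over the 49, against -0.0194 over all tested probe sets. Without Cm489 replicate 2 it turned to -0.24, against -0.10 over all tested probe sets. Without F98902 replicate 2 it turned to -0.0741, against -0.0621 over all. The fitted differences ran from -2.89 to 2.51, and the upper end is that of sdg118, whose bound is 1.74. The next highest was 1.88, of a probe set of nfa104. A missed threshold does not show equal levels.

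Both F98902 arrays lay above both Cm489 arrays for 10 of the 49 probe sets, where 18.1% of all tested probe sets did so. They lay below for 7, where 20.0% of all did. Both shares are near the background. By 1 probe set per gene, the higher genes were sdg118, nfa103, nfa104, hda113, SDG123, mbd106 and mbd101. The lower genes were sdg110, hag101, HMG11, mbd105, hda101 and hmg2.

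**Figure D2:**
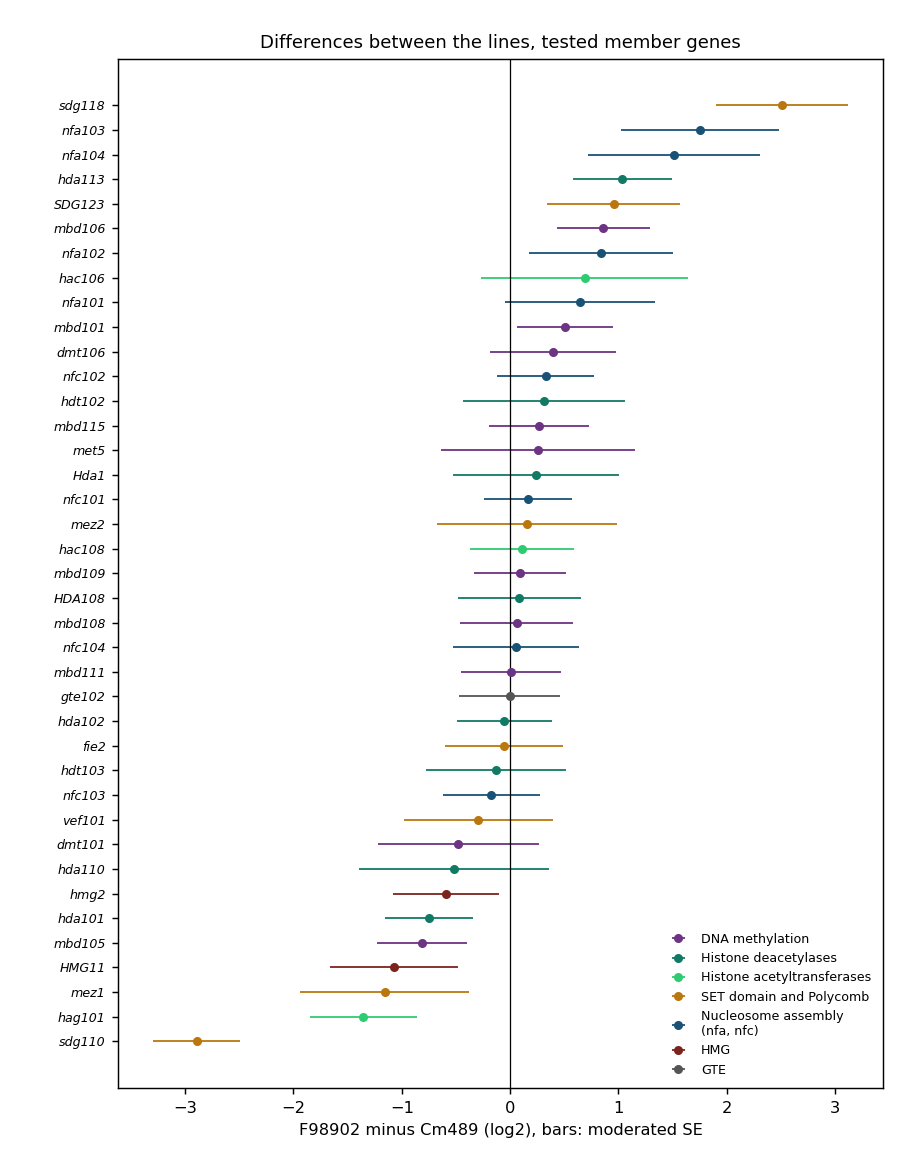
The difference between the lines (F98902 minus Cm489, log2, horizontal axis) for the 39 tested genes, with the moderated SE as bars and colours for the classes. The extremes are sdg118 at 2.51 and sdg110 at -2.89, and none passed. For sdg118 the point is the fitted value, while its lower bound is 1.74.

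Among SET domain genes, whose proteins carry the fold that most histone lysine methyltransferases share, sdg110 and sdg118 stood furthest from 0. The gene sdg110 (LOC542662) was at 5.12 and 5.22 in F98902, against 7.94 and 8.20 in Cm489. The arrays of each line lay close together and the lines were far apart, with a difference of -2.89 (SE 0.40, limma adjusted p = 0.0771). A second probe set of sdg110 was at 6.02 and 5.18 in F98902, against 6.50 and 7.27 in Cm489, a difference of -1.29 (SE 0.56, adjusted p = 0.589). The direction was shared and the size was not. Its other 2 probe sets lay between 1.91 and 2.07 everywhere. A difference in transcript level cannot be told apart here from a difference in how well a line's sequence matches the probes. With 1 array left out, the first difference ran from -3.02 to -2.77, and its adjusted p over 12 alternatives from 0.0646 to 0.693.

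The gene sdg118 (LOC542089) was at 5.48 and 6.001 in F98902, against 3.85 and 2.62 in Cm489. Since both Cm489 arrays were under 4, the F98902 signal was at least 1.74 higher. The fitted difference was 2.51 (SE 0.61, limma adjusted p = 0.265). As for sdg110, a difference in transcript level cannot be told apart from a difference in match to the probes. The probe set passed the filter through F98902 alone. SDG123 (LOC542096) was at 7.58 and 6.28 in F98902, against 6.16 and 5.80 in Cm489, so that the lines were separated by the narrow gap between F98902 replicate 2 and Cm489 replicate 1 (difference 0.96, SE 0.61, adjusted p = 0.777). The gene sdg113 (LOC541980) had 1 value above 4, on F98902 replicate 2 (4.44), against 3.78 on F98902 replicate 1 and 3.81 and 2.72 in Cm489.

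The 3 Enhancer of zeste genes, which encode the catalytic subunit of Polycomb repressive complex 2, had different patterns over the arrays. The gene mez1 (LOC541954) was at 6.70 and 8.56 in F98902, against 9.05 and 8.54 in Cm489. F98902 replicate 1 was the low array, and the difference of -1.16 (SE 0.78, limma adjusted p = 0.793) shrank to -0.23 without it. The gene mez2 (LOC542659) was at 9.41 and 7.78 in F98902, against 7.79 and 9.10 in Cm489. Its arrays paired across the lines rather than within them, with a difference of 0.15 (SE 0.83, adjusted p = 0.986). The gene mez3 (LOC541955) was at 5.04 on F98902 replicate 1 alone, against 2.97 on F98902 replicate 2 and 3.20 and 3.15 in Cm489. The array that was lowest for mez1 was thus the highest for both mez2 and mez3.

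The 2 maize FIE genes were unlike each other. The gene fie2 (LOC542076) was at 7.50 and 7.57 in F98902, against 8.13 and 7.05 in Cm489, and the Cm489 arrays enclosed the F98902 arrays (difference -0.0567, SE 0.55, limma adjusted p = 0.993). The gene fie1 (LOC542075), known as an imprinted gene of the endosperm, was at 2.11 and 2.08 in F98902, against 2.11 and 2.09 in Cm489, the floor of the scale. The EMF2-like gene vef101 (LOC542512), of the VEF domain subunit, was at 8.63 and 7.06 in F98902, against 7.95 and 8.33 in Cm489. As for mez2, F98902 replicate 1 was its highest array and F98902 replicate 2 was low (difference -0.29, SE 0.69, adjusted p = 0.957).

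Of the 3 DNA methyltransferase genes, dmt101 (LOC542082), also named met1, encodes the MET1-type enzyme. It was at 8.46 and 10.05 in F98902, against 10.15 and 9.33 in Cm489. F98902 replicate 2 and Cm489 replicate 1 were nearly level, and F98902 replicate 1 was lowest. The chromomethylase gene met5 (DMT105) was dimmer, at 3.29 and 5.24 in F98902, against 4.61 and 3.40 in Cm489. F98902 replicate 2 was highest, and F98902 replicate 1 and Cm489 replicate 2 were both under 4, which gives them no order. Its other 2 tested probe sets had F98902 replicate 2 highest as well, at 4.59 and 4.76. In these Cm489 replicate 2 was lowest, at 2.59 and 2.99. In each line met5 was above 4 on 1 array only, and its difference of 0.26 (SE 0.90, limma adjusted p = 0.971) carries little. The methyltransferase gene dmt106 (LOC541971) went the other way, at 7.31 and 6.13 in F98902, against 6.13 and 6.52 in Cm489 (difference 0.40, SE 0.58, adjusted p = 0.918).

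The 7 mbd genes, whose methyl-CpG-binding domain proteins include readers of DNA methylation, had replicates that differed by a median of 0.33 in F98902 and 0.42 in Cm489. Over the 3 methyltransferase genes the medians were 1.59 and 0.82, with no test of the difference between the families. The gene mbd106 was at 10.92 and 10.64 in F98902, against 9.71 and 10.13 in Cm489 (difference 0.86, SE 0.43, limma adjusted p = 0.673). The gene mbd105 was at 9.91 and 9.74 in F98902, against 10.46 and 10.82 in Cm489 (difference -0.82, SE 0.41, adjusted p = 0.686). These 2 readers therefore lay apart in opposite directions, each by more than its replicate spread and neither past the threshold. The gene mbd101 was at 10.20 and 9.83 in F98902, against 9.74 and 9.28 in Cm489 (difference 0.504, SE 0.44). The gene mbd115 was at 9.71 and 10.40 in F98902, against 9.69 and 9.88 in Cm489. For mbd108, mbd109 and mbd111 the differences were 0.0593, 0.0911 and 0.0103, and the arrays of the lines overlapped.

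Among histone deacetylases, hda101 and hda113 had both arrays of 1 line above both arrays of the other. The RPD3-type gene hda101 (LOC541931) was at 10.70 and 10.97 in F98902, against 11.50 and 11.67 in Cm489 (difference -0.75, SE 0.41, limma adjusted p = 0.716). The gene hda113 (LOC542568) was at 9.91 and 10.24 in F98902, against 9.33 and 8.75 in Cm489 (difference 1.04, SE 0.46, adjusted p = 0.596). Its second tested probe set had the same order of lines, at 6.89 and 7.84 in F98902, against 6.39 and 5.44 in Cm489 (difference 1.45, SE 0.61, adjusted p = 0.570). Neither gene passed.

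In 4 other hda genes the arrays of a line lay further apart than the line means. The gene hda110 (LOC541972) was at 7.54 and 9.21 in F98902, against 9.62 and 8.16 in Cm489. The gene Hda1 (LOC541883), also named rpd3, had the mirror image, at 9.52 and 8.38 in F98902, against 7.97 and 9.46 in Cm489. Their differences between the lines were -0.52 (SE 0.87, limma adjusted p = 0.932) for hda110 and 0.24 (SE 0.77, adjusted p = 0.968) for Hda1. HDA108, another RPD3-type gene, was at 8.08 and 9.09 in F98902, against 8.80 and 8.21 in Cm489, and hda102 (LOC541953) at 8.39 and 8.83, against 8.85 and 8.48. Both had the order of hda110. The gene hda106 (LOC541932) gave no level, at values between 2.66 and 3.04 on all 4 arrays.

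The hdt genes encode HD2-type deacetylases, a plant-specific family found in the nucleolus. The gene hdt102 (LOC542636) was at 12.21 and 13.21 in F98902, against 13.15 and 11.64 in Cm489 (difference 0.31, SE 0.75, limma adjusted p = 0.959). The gene hdt103 (LOC542355) was at 11.44 and 12.24 in F98902, against 12.58 and 11.36 in Cm489 (difference -0.13, SE 0.64, adjusted p = 0.983). In both genes Cm489 replicate 2 was the lowest array, in hdt103 only just. Another tested probe set of hdt103 had F98902 replicate 1 lowest, at 10.89, against 10.985 on Cm489 replicate 2. In the third Cm489 replicate 2 was lowest. The 3 tested probe sets of hdt103 did not share a sign, with differences of -0.13, -0.49 and 0.28. The fourth reached 4 on Cm489 replicate 1 alone (5.22).

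The 3 acetyltransferase genes each had their own pattern. The gene hag101 (LOC542030), the maize GCN5 homologue, was at 7.85 and 8.34 in F98902, against 9.80 and 9.10 in Cm489. The lines did not overlap, with a difference of -1.35 (SE 0.49, limma adjusted p = 0.480), and it ran from -1.71 to -1.003 with 1 array left out. The gene hac106 (LOC542083), also named hat1, was at 7.39 and 9.05 in F98902, against 8.45 and 6.61 in Cm489, so that replicates were further apart than the lines (difference 0.69, SE 0.95, adjusted p = 0.909). The gene hac108 (LOC541950), also named ham101, of the MYST family of acetyltransferases, was at 8.80 and 8.33 in F98902, against 8.14 and 8.77 in Cm489 (difference 0.11, SE 0.48, adjusted p = 0.979).

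Nucleosome assembly genes were low on 1 array. The nfa genes encode histone chaperones of the NAP type, which deliver histones to new DNA. The gene nfa103 (LOC541933) was at 11.09 and 10.57 in F98902, against 9.92 and 8.24 in Cm489 (difference 1.75, SE 0.73, limma adjusted p = 0.563). The gene nfa104 (LOC542654) was at 10.52 and 10.37 in F98902, against 9.92 and 7.95 in Cm489 (difference 1.51, SE 0.80, adjusted p = 0.702). In both genes the lines did not overlap, and Cm489 replicate 2 lay 1.68 and 1.97 below Cm489 replicate 1. The gene nfa101 (LOC542113) was at 12.47 and 12.57 in F98902, against 12.69 and 11.07 in Cm489. The gene nfa102 (LOC542588) was at 11.15 and 11.35 in F98902, against 11.17 and 9.66 in Cm489. For these 2 genes F98902 and Cm489 replicate 1 were close together and Cm489 replicate 2 stood alone.

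Without Cm489 replicate 2 the differences of the nfa genes became smaller, at 0.91 for nfa103, 0.53 for nfa104, 0.0875 for nfa102 and -0.17 for nfa101. With it, all 5 nfa probe sets had a positive difference, with a median of 1.51, and all 5 were lowest on that array.

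The nfc genes encode WD40 proteins of the MSI1 and RbAp48 type, which bind histones in assembly, deacetylase and Polycomb complexes. They were low on the same array by less. The gene nfc101 (LOC542087) was at 10.12 and 10.18 in F98902, against 10.15 and 9.82 in Cm489. The brightest probe set of nfc102 (LOC541934) was at 11.73 and 11.55 in F98902, against 11.62 and 11.01 in Cm489, and nfc104 (LOC542084) was at 7.02 and 7.56, against 7.78 and 6.68. The gene nfc103 (LOC542545) was the exception, at 11.34 and 11.84 in F98902, against 11.95 and 11.57 in Cm489, with F98902 replicate 1 lowest. A second probe set of nfc102 separated the lines, at 11.19 and 10.83 in F98902, against 10.55 and 9.98 in Cm489 (difference 0.74, SE 0.46, limma adjusted p = 0.762), while its other 2 did not. The 4 nfc genes differed between the lines by -0.17 to 0.33.

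Over the 11 assembly probe sets 10 were lowest on Cm489 replicate 2, and over all 49 chromatin probe sets 26 were, where 27.9% of all tested probe sets had their lowest value on that array. Only 4 of the 49 were highest there. Since the samples are bulk tissue, fewer cells of a type and less RNA per cell cannot be told apart.

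The hmg genes encode high mobility group proteins, which bend DNA in chromatin. HMG11 (LOC542455), also named hmg3, was at 4.28 and 5.39 in F98902, against 6.21 and 5.60 in Cm489 (difference -1.07, SE 0.59, limma adjusted p = 0.722). The brighter probe set of hmg2 (LOC541951) was at 11.15 and 11.61 in F98902, against 12.32 and 11.63 in Cm489 (difference -0.59, SE 0.49, adjusted p = 0.827). Its lines were separated by a gap far narrower than its replicate spread, and the other probe set of hmg2 overlapped, at 11.19 and 11.93 in F98902, against 11.80 and 11.24 in Cm489. The bromodomain gene gte102 (LOC542112), of a family whose domain binds acetylated histones, was at 10.97 and 11.16 in F98902, against 11.42 and 10.72 in Cm489 (difference -0.00561, SE 0.47).

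To compare the 7 classes on each array, every probe set was set against its own mean over the 4 arrays, and the median of these deviations was taken per class. Deacetylases were at -0.34 and 0.37 on replicates 1 and 2 of F98902, against 0.29 and -0.47 in Cm489. DNA methylation genes were at -0.16 and 0.25 in F98902, against 0.26 and -0.26 in Cm489. In both classes the replicates of a line lay on opposite sides of their mean, and the orders were opposite in the lines. The medians over all tested probe sets had the same signs and were smaller in size. Acetyltransferases were at -0.49 and -0.18 in F98902, against 0.58 and 0.26 in Cm489. Assembly genes were at 0.32 and 0.30 in F98902, against 0.14 and -0.66 in Cm489. SET and Polycomb genes were at 0.29 and -0.45 in F98902, against 0.11 and 0.33 in Cm489. HMG genes were at -0.53 and 0.0202 in F98902, against 0.65 and -0.0505 in Cm489.

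**Figure D3:**
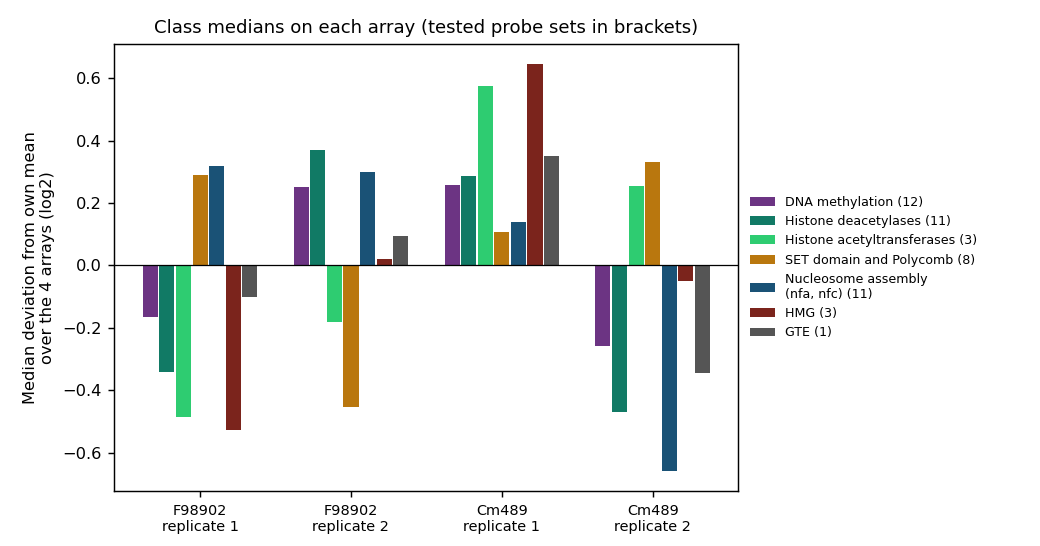
The median deviation of each class from its probe sets' own means over the 4 arrays (log2, vertical axis), with the number of tested probe sets in the legend. Bars are class medians on 1 array each and have no error. Deacetylases are at -0.34 and 0.37 in F98902, against 0.29 and -0.47 in Cm489, and assembly genes are at -0.66 on Cm489 replicate 2.

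In 5 of the 7 classes the median of replicate 2 was above that of replicate 1 in F98902 and below it in Cm489. The assembly class and the SET and Polycomb class are left out. The medians over all tested probe sets had this order too, at -0.0371 and 0.0466 in F98902, against 0.0986 and -0.0273 in Cm489. The count of classes alone therefore does not set them apart from the background, and 1 of the 5, GTE, is a single gene. With 1 probe set per gene the assembly class joined the 5, at 0.27 and 0.33 in F98902, against 0.25 and -0.85 in Cm489. Single probe sets had this order in 29 of 49 cases, where 40.9% of all tested probe sets did. The opposite order was found in 8 of 49, where 32.4% of all tested probe sets had it. The 8 are dmt106, mbd105, mbd106, mez2, vef101, hac108, Hda1 and the second probe set of sdg110. By class, the first order was found in 9 of 11 deacetylase, 6 of 12 DNA methylation, 5 of 11 assembly, 3 of 8 SET and Polycomb, 2 of 3 acetyltransferase and 3 of 3 HMG probe sets, and in the GTE probe set. By 1 probe set per gene it was found in 23 of 39 genes. Among them were 6 of 8 deacetylase, 4 of 10 DNA methylation, 5 of 8 assembly and 3 of 7 SET and Polycomb genes. The share of DNA methylation genes is near the 40.9% of all tested probe sets. Several probe sets of that class are of met5, with some arrays under log2 4. The median of replicate 2 minus replicate 1 over the 49 was 0.26 in F98902 and -0.61 in Cm489, against 0.0486 and -0.11 over all tested probe sets.

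The gene hac106 had this order with shifts of 1.66 in F98902 and -1.84 in Cm489, and hda110 with 1.67 and -1.46. For mez1 the shifts were 1.86 and -0.51. For met5 they were 1.95 and -1.21, but F98902 replicate 1 (3.29) and Cm489 replicate 2 (3.40) were under log2 4, so the sizes are uncertain. In the opposite order the shifts were -1.63 and 1.31 for mez2 and -1.14 and 1.49 for Hda1. These shifts describe pairs of arrays and have no test, since the labels name no factor behind them. Both Cm489 samples carry an extraction text that bears the name of replicate 2, so the order of the Cm489 arrays rests on their titles.

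**Figure D4:**
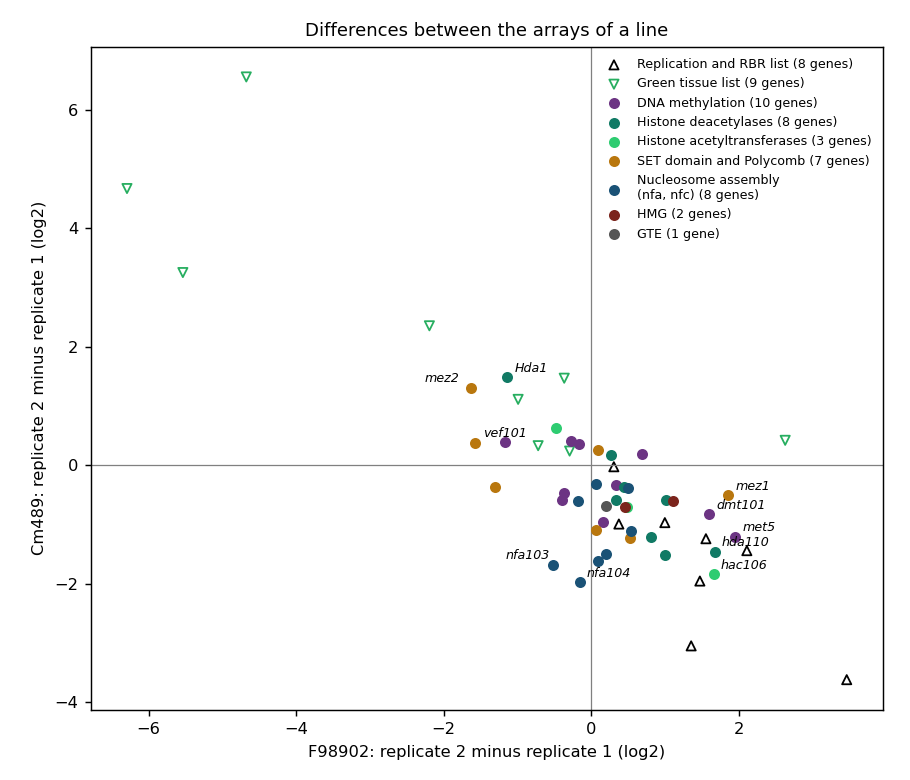
Replicate 2 minus replicate 1 (log2) in F98902 (horizontal axis) and in Cm489 (vertical axis) for the tested chromatin genes, filled and coloured by class, and for 2 related lists with open triangles. Each point is 1 gene. All 8 tested genes of the replication and RBR list lie in the lower right, where 23 of the 39 chromatin genes also lie. Of the 9 tested green tissue genes 8 lie in the upper left.

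A list of genes of DNA replication, chosen by symbol, also held RBR1, a retinoblastoma-related gene. All 8 tested genes of the list, RBR1 included, had replicate 2 above replicate 1 in F98902 and below it in Cm489, and their median shift was 1.41 in F98902 and -1.34 in Cm489. RBR1 was close to level in Cm489, with a shift of -0.0245. The tested gene orc2 was at 2.68 and 6.14 in F98902, against 5.51 and 1.89 in Cm489. Its low array in each line was under log2 4, so the sizes of its shifts are uncertain. Of the 10 genes of the list, RBR2 and MCM7 were untested, above 4 on F98902 replicate 1 alone. Neither had this order, with RBR2 down in both lines and MCM7 down in F98902 and up in Cm489. The log2 of the summed linear signal of the list was 9.76 and 11.10 in F98902, against 11.26 and 9.77 in Cm489. The gene orc1 (LOC541937), of the origin recognition complex, was at 6.77 and 8.88 in F98902, against 6.76 and 5.32 in Cm489. The sliding clamp gene pcna2 (LOC542357) was at 5.33 and 6.69 in F98902, against 9.33 and 6.28 in Cm489. Of the 9 green tissue genes 8 had the opposite order, with a median shift of -0.99 in F98902 and 1.47 in Cm489. Between the lines 0 of 8 genes of the replication and RBR list and 0 of 9 green tissue genes passed (limma), with 0 and 0 at an unadjusted p under 0.05.

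Of the histone genes, 0 of 6 tested passed (limma). At an unadjusted p under 0.05 there were 2, H1 and his2b5, where 10.5% of all tested probe sets had one. Of the 6 genes, 4 had a positive and 2 a negative difference, with a median of 0.73. The brightest probe set of the linker histone gene H1 (LOC542385) was at 5.95 and 5.29 in F98902, against 2.77 and 2.73 in Cm489. It was at least 1.62 higher in F98902 (limma adjusted p = 0.109 for the fitted difference). The other probe sets of H1 were dimmer on average and are not given. As for sdg110, a difference in transcript level cannot be told apart from a difference in match to the probes. The histone H2B gene his2b5 (LOC542301) was at 3.72 and 3.004 in F98902, against 5.55 and 7.26 in Cm489, which bounds the difference at -2.41 or below (adjusted p = 0.274 for the fitted difference of -3.05). The centromere protein gene CenpcA (LOC541777) was at 5.44 and 5.89 in F98902, against 4.79 and 3.70 in Cm489 (adjusted p = 0.541). The limit of probe match holds for his2b5 as well. H1 and his2b5 each reached 4 in 1 line only and passed the filter through that line, so their count is no support for a difference.

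Of 8 tested genes of other chromatin families 0 passed (limma, 0 at an unadjusted p under 0.05), with 3 positive and 5 negative differences and a median of -0.0655. The HMG-related gene nfd101 (LOC542658) was at 4.78 and 6.58 in F98902, against 6.56 and 9.31 in Cm489 (adjusted p = 0.716). The gene TLK2 (LOC542152) was at 8.41 and 7.55 in F98902, against 7.01 and 7.59 in Cm489 (adjusted p = 0.818). In small RNA silencing, where RNA directs DNA methylation, lbl1 (LOC100037819), of the trans-acting siRNA pathway, was at 8.48 and 7.79 in F98902, against 9.17 and 9.27 in Cm489 (adjusted p = 0.570). The polymerase subunit gene rmr7 (LOC100037782) was at 7.99 and 7.72 in F98902, against 7.82 and 7.62 in Cm489 (adjusted p = 0.966). The methyl donor list held sam2 (LOC542733), at 14.47 and 13.52 in F98902, against 14.59 and 14.70 in Cm489 (adjusted p = 0.821). Of the 10 tested genes of the floral MADS box list 0 passed (limma). At an unadjusted p under 0.05 there were 2, m24 and zap1, where 10.5% of all tested probe sets had one. The one furthest from 0, m24 (LOC542038), was at 4.78 and 6.40 in F98902, against 9.02 and 10.12 in Cm489 (limma adjusted p = 0.182). For zap1 the difference was -1.42 (adjusted p = 0.445).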

How the data were processed

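The deposited table holds 1 log2 value per probe set and array. The authors used GCRMA per the submitters' processing notes (version not given in the sources used here), and base 2 was inferred from the range of values. Each of the 113 controls was left out of the tests. Names came from the platform annotation through Entrez gene numbers to RefSeq (assembly Zm-B73-REFERENCE-NAM-5.0). The table names no build, so no coordinates are given. Probe sets at log2 4 or more on at least 2 of 4 arrays were fitted with limma 3.58.1 in R 4.3.3 (lmFit and eBayes, F98902 minus Cm489, two-sided, Benjamini-Hochberg over 11242 probe sets, threshold 0.05). SE is the moderated standard error. Values under 4 on both arrays of a line were taken as 4 for a bound. The fit was tested on simulated data.

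Replicate numbers were not taken as pairs, since the labels do not say that they mark a shared plant or batch. For each gene the probe set with the highest mean stands first, and others are given where they disagree. The rule named every member, with array values for all dmt, mez, fie, vef and hac genes, for the 4 genes per class furthest from 0 and for those whose lines did not overlap, and up to 3 genes per related list. Array values of other members were added after their values were seen. So were the statements on si1, ZAG1, zag2, ZAG3, ZAG5, zmm2, orc2, RBR2 and MCM7. Members and lists were chosen with earlier results of these data known. Alternatives were other dim filters, values under 4 raised to 4, a trended robust prior, equal medians, quantile normalization, replicate blocks and leaving out each array.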

Additional observations from a re-analysis of the deposited data

How the results depend on the processing

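The count of 0 chromatin probe sets past the threshold stood under every alternative run, and so did the 5 classes with opposite replicate orders under each filter and scaling, a count that needs all 4 arrays (6 with 1 probe set per gene, added after seeing the data). Members at an unadjusted p under 0.05 numbered 2 in the fit as reported and ran from 1 to 7. The count over all probe sets was 200, against 79 with no filter, 115 with values under log2 4 raised to 4, 8 with a trended robust prior and 0 with a replicate block by number. Leaving out each array in turn gave 0 to 0, with the lone array taken to vary like the pair of the other line. Differences between replicates correlated at -0.56 between the lines across probe sets, and a crossed pairing as a block, added after seeing the data, gave 284. The median difference of the members was 0.15 and ran from -0.24 to 0.33 over left-out arrays, against -0.10 to 0.03 over all tested probe sets.

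No value of the 39 genes passed under an alternative. Filters, prior and blocks leave a difference as it is. Under the 2 scalings 3 of 78 values turned, with a common median in gte102 (0.0498) and hda102 (0.000756), with quantile normalization in fie2 (0.0228). With 1 array left out 37 of 152 turned. In these genes the range over left-out arrays was -1.28 to 0.32 (dmt101), -0.19 to 0.98 (dmt106), -0.35 to 1.24 (met5, which failed the filter without Cm489 replicate 1 or F98902 replicate 2), -0.42 to 0.54 (mbd108), -0.0741 to 0.26 (mbd109), -0.28 to 0.30 (mbd111), -0.075 to 0.61 (mbd115), -0.35 to 0.34 (gte102), -0.60 to 0.49 (fie2), -0.66 to 0.97 (mez2), -1.08 to 0.49 (vef101). It was -0.23 to 1.61 (hac106), -0.20 to 0.42 (hac108), -0.42 to 0.59 (HDA108), -0.51 to 0.98 (Hda1), -0.28 to 0.17 (hda102), -1.35 to 0.32 (hda110), -0.44 to 1.07 (hdt102), -0.74 to 0.48 (hdt103), -0.17 to 1.45 (nfa101), -0.42 to 0.0743 (nfc103) and -0.50 to 0.60 (nfc104). The cause was not tested.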
